A study of Mus musculus with 41 samples.

Results

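Mouse cells that had received CRISPR guides against Brd8 were compared directly with cells that had received guides against Ezh2, at day 11 of differentiation towards spinal cord neural progenitors. The comparison takes the 3 libraries titled Brd8 and the 3 titled Ezh2 at that day, which are 6 of the 41 libraries of the series, and all genes with enough counts to test in them, which are 13511 of the 24410 gene symbols in the table. All cells were R1-iCas9, a mouse embryonic stem cell line whose Cas9 nuclease is turned on by doxycycline. Doxycycline was added the day before transfection, and a pool of 5 synthetic crRNAs per gene, joined to tracrRNA, was transfected on a matrigel coat at day 0. The cells then passed through N2B27 medium with bFGF, with CHIR99021, with retinoic acid (RA) plus the Smoothened agonist SAG, and with SAG alone. The labels give the genotypes as Brd8 KO and Ezh2 KO and name the cells neural progenitors. The guides were pooled and the labels describe no picking of clones, so a library can hold edited and unedited cells together. Values of 2 other day 11 groups, cells with a non-targeting guide (NT, 3 libraries) and Eed KO (3 libraries), and of Brd8 KO and Ezh2 KO at days 7 and 9 are given beside the comparison.

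Brd8 is a bromodomain protein of the NuA4/TIP60 complex, which acetylates histones and exchanges histone variants at the promoters of active genes. Ezh2 is the catalytic subunit of Polycomb repressive complex 2 (PRC2), which places a repressive methyl mark on histone H3. Its relative Ezh1 can carry out part of the same reaction, and Eed is the subunit that binds the mark. PRC2 is known for holding genes of other lineages and posterior Hox genes silent. In the developing spinal cord, progenitors make neurons first and later astrocytes and oligodendrocyte precursors, and PRC2 is among the regulators known to affect that timing.

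The 6 libraries held 9610855 to 21992476 estimated counts, and the ribosomal transcript Rn45s took 5.15% to 7.25% of them. Log2 CPM (counts after scaling libraries to equal size) correlated at 0.961 to 0.972 among Brd8 libraries, 0.975 to 0.981 among Ezh2 libraries and 0.962 to 0.977 between the groups. The neural identity was checked on markers: the summed CPM of 7 neural progenitor markers was 892 to 996 with Brd8 guides and 1012 to 1220 with Ezh2 guides, and that of 4 neuronal markers was 1457 to 1700 and 1702 to 1732. Of 2 blood markers, Gata1 was at 0 in all 6 libraries and Ptprc did not exceed 0.149 CPM. Among the other day 11 libraries, NT replicate 3 and Eed replicate 3 agreed least with their own groups. Nothing in the labels says that replicates were separate cultures, so the p-values measure the spread between these libraries, which may be technical.

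The guides' own targets were measured first. Brd8 RNA stood at 54.1, 66.5 and 63.1 CPM in the libraries with Brd8 guides and at 84.3, 74.4 and 87.2 CPM in those with Ezh2 guides. The groups did not overlap, but the difference of −0.41 ± 0.11 (log2 of Brd8 over Ezh2 guides, ± SE; 95% interval −0.64 to −0.18) did not pass the test (adjusted p = 0.121, edgeR quasi-likelihood test with Benjamini-Hochberg adjustment, as are all adjusted p-values here). Ezh2 RNA was at 211, 169.9 and 210.2 CPM with Brd8 guides and 186, 153 and 189.8 CPM with Ezh2 guides, overlapping ranges with a log2 difference of 0.17 ± 0.10 (adjusted p = 0.651). Against NT, in a fit of all 41 libraries, Brd8 RNA with Brd8 guides was not called lower (log2 −0.23, adjusted p = 0.0953). Ezh2 RNA was called higher than NT with Ezh2 guides (log2 0.37, adjusted p = 0.00458) and with Brd8 guides (log2 0.53, adjusted p = 1.46e-05). Neither target was thus called lower than NT in cells with its own guides. Small deletions and insertions made by Cas9 can leave transcript levels in place, so the edits themselves are not tested by them.

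Few genes passed the test between cells with Brd8 guides and cells with Ezh2 guides. Of the 13511 genes tested, 1338 had an unadjusted p under 0.05 (edgeR quasi-likelihood test) and 71 (0.525%) had an adjusted p under 0.05. Of these 71, 39 (0.289% of the genes tested) were higher with Brd8 guides and 32 (0.237%) were higher with Ezh2 guides. Of those higher with Brd8 guides, 10 belonged to the list of muscle and sarcomere genes, and of those higher with Ezh2 guides, 4 belonged to the oligodendrocyte lineage list and 3 to the gliogenesis list. The median log2 difference was 1.27 among the 39 and −0.68 among the 32, and 26 of the 71 differed at least 2-fold (23 higher with Brd8 guides, 3 with Ezh2 guides). Over all genes tested the median absolute log2 difference was 0.14, and 91.5% lay within 1.5-fold of equality. Every library of one group lay above every library of the other for 975 genes in the direction of Brd8 (7.22%) and for 1083 in the direction of Ezh2 (8.02%).

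**Figure D1:**
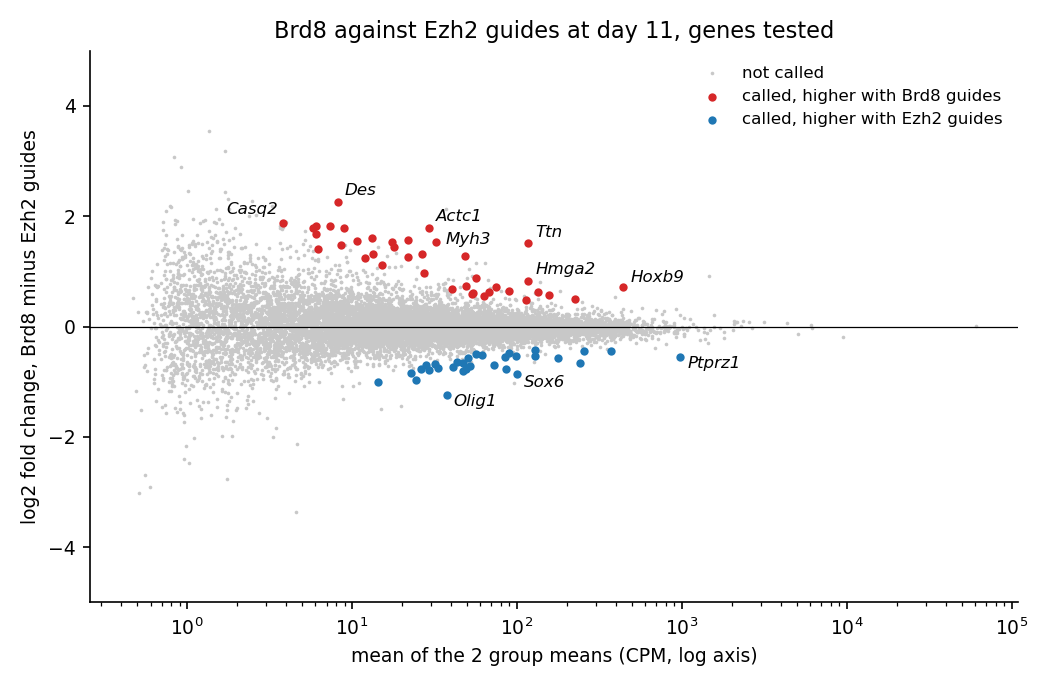
Each point is 1 of the genes tested at day 11, with the mean of its 2 group means (CPM, log axis) on the horizontal axis and its log2 difference (Brd8 minus Ezh2 guides) on the vertical axis. The 39 genes called higher with Brd8 guides (red) reach larger differences than the 32 called higher with Ezh2 guides (blue), grey genes were not called, and Fam177a, listed at 0 in all Brd8 libraries, and 1 grey clone-like gene lie off the axis.

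The number of calls depended strongly on the libraries in the fit. It was 21 without Ezh2 replicate 3, 28 without Ezh2 replicate 1, 31 without Brd8 replicate 1, 47 without Brd8 replicate 3, 109 without Brd8 replicate 2 and 136 without Ezh2 replicate 2, and it was 1 when all 41 libraries shared an estimate of the spread. All 71 differences kept their sign in each of the 16 alternatives run, and in the 41-library fit 66 of the 71 had an unadjusted p under 0.05. Neither count is separate support. The 71 were chosen from these 6 libraries, in which the groups did not overlap for any of them, and the alternatives reuse the same libraries. A set of 19 genes was called without any 1 of the 6 libraries. The same 19 were called with DESeq2 size factors, the DESeq2 Wald test, no filter on low counts, Rn45s left out and the replicate number as a block. The fit without robust estimates was not part of that count. On the Brd8 side they were Acta1, Acta2, Actc1, Actn2, Mef2c, Mira, Myh3, Myh8, Tpm2, Fzd10, Hmga2, Hoxb9 and Txnip. On the Ezh2 side they were Adcyap1r1, Fam177a, Olig1, Slc6a11, Sox6 and Sparcl1. Of these, Mira, a gene of a non-coding RNA, and Mef2c, Myh8, Fzd10, Txnip and Adcyap1r1 fall outside the rule for naming genes and are named after their values were seen.

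Genes of the sarcomere, the repeating contractile unit of striated muscle, were higher with Brd8 than with Ezh2 guides. Of a list of 26 muscle and sarcomere genes, 21 were tested, and 10 were called higher with Brd8 guides and 0 higher with Ezh2 guides. All 21 log2 differences were above 0, with a median of 1.54 against 0.00 over all genes tested. For 17 of the 21 every Brd8 library lay above every Ezh2 library, as for 7.22% of all genes tested. The other 5 members (Csrp3, Myl3, Myl7, Myod1 and Tnni2) had too few counts to test, and Myh6 passed the filter on low counts through the Brd8 libraries alone. Tnnt1, Tnnt3 and Tnnc2 reached the filter's cutoff in 3, 3 and 2 Brd8 libraries and in 1, 2 and 1 Ezh2 libraries. The counts above thus hold members that the Brd8 libraries helped to pass. With all 41 libraries in the fit 0 members were called, at a list median of 1.54, and without the filter on low counts 13 were. In bulk RNA, more cells of a type and more RNA per cell cannot be told apart. Striated actins, myosin heavy chains and their relatives are close copies, and how the authors' counting divided reads between copies is not given in the sources used here, so single members of these families are uncertain.

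The thin filament is built of actin, tropomyosin and troponin. Actc1, the cardiac alpha-actin that embryonic skeletal muscle also makes (chr2:114047282-114053548, minus strand, GRCm38), was at 59.4, 32.2 and 43.8 CPM with Brd8 guides and 12.8, 12.5 and 14.1 CPM with Ezh2 guides. The lowest Brd8 library was thus above the highest Ezh2 library, and the means were 45.1 ± 13.6 and 13.1 ± 0.883 CPM (SD, n = 3 each). The difference was 3.44-fold (log2 1.78 ± 0.19, adjusted p = 0.000743). In NT libraries Actc1 was at 0, 0.649 and 0 CPM, and in Eed libraries at 37.3, 26.8 and 27.2 CPM. Acta1, the skeletal alpha-actin (chr8:123891769-123894751, minus strand), was at 31.8, 29.5 and 36.8 CPM against 7.28, 13 and 12.3 CPM, again without overlap (log2 1.58 ± 0.20, adjusted p = 0.00102). Tpm2, a tropomyosin that lies along the actin filament, was at 15.1, 15.7 and 17.2 CPM against 4.74, 6.16 and 5.4 CPM (log2 1.55 ± 0.22, adjusted p = 0.00258). Tnni1, the troponin I of slow muscle, was listed at 0 in all 3 NT libraries, at 2.28, 4.02 and 2.33 CPM with Ezh2 guides and at 9.63, 7.0 and 11.1 CPM with Brd8 guides (log2 1.67 ± 0.32, adjusted p = 0.0278).

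Acta2, the smooth muscle alpha-actin, differed from the other actins in where the control stood. It was at 35.3, 18.7 and 23.7 CPM with Brd8 guides and 8.42, 9.94 and 8.34 CPM with Ezh2 guides (log2 1.54 ± 0.22, adjusted p = 0.00294), while the NT libraries held 24.9, 15.5 and 18.1 CPM. All NT libraries thus lay above all Ezh2 libraries, and the comparison with NT passed neither for Brd8 (log2 0.41, adjusted p = 0.57) nor for Ezh2 guides (log2 −1.13, adjusted p = 0.0992). Mylk, the kinase of smooth muscle myosin light chain, had a similar order of levels, with 23.4, 7.62 and 9.97 CPM, 3.25, 3.58 and 5.05 CPM and 8.44, 11.3 and 5.53 CPM in Brd8, Ezh2 and NT libraries. It was not called here (adjusted p = 0.0714), but it was the 1 gene called when all 41 libraries were fitted together (adjusted p = 0.00626), and it is named for that reason, after its values were seen.

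Thick filament and scaffold genes showed the same separation. Myh3, the embryonic myosin heavy chain that is the motor of newly formed muscle fibres (chr11:67078300-67102291, plus strand), was at 55.2, 46.3 and 43.5 CPM with Brd8 guides and 13.1, 19.6 and 17.2 CPM with Ezh2 guides. Its difference of 2.9-fold (log2 1.54 ± 0.16) had the smallest adjusted p of the comparison (0.000499), and the Eed libraries, at 28.4, 23.9 and 27.3 CPM, lay between the groups. Ttn, the giant spring protein titin (chr2:76703980-76982547, minus strand), was at 200.0, 138 and 180.4 CPM against 46.1, 65.1 and 69.7 CPM (log2 1.52 ± 0.17, adjusted p = 0.00578). Des, which encodes the intermediate filament desmin (chr1:75360329-75368579, plus strand), was low in both groups, at 16.6, 8.46 and 15.9 CPM against 1.58, 4.12 and 2.63 CPM, and had the largest fold of the called muscle genes (4.79-fold, log2 2.26 ± 0.35, adjusted p = 0.0056). The light chains Myl1 (log2 1.79 ± 0.31, adjusted p = 0.0137) and Myl4 (log2 1.83 ± 0.31, adjusted p = 0.0124) complete the called members. Of the 10 called members, Acta1, Acta2, Actc1, Myh3 and Tpm2 stayed called without any 1 library. The other 5 lost the call when a library was left out: Des without Ezh2 replicate 3 (adjusted p = 0.0726), Ttn without Brd8 replicate 3 (0.0693), Myl4 without Brd8 replicate 1 or Ezh2 replicate 3 (up to 0.0956), and Myl1 and Tnni1 without 3 and 4 of the 6 libraries (up to 0.113 and 0.198).

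**Figure D2:**
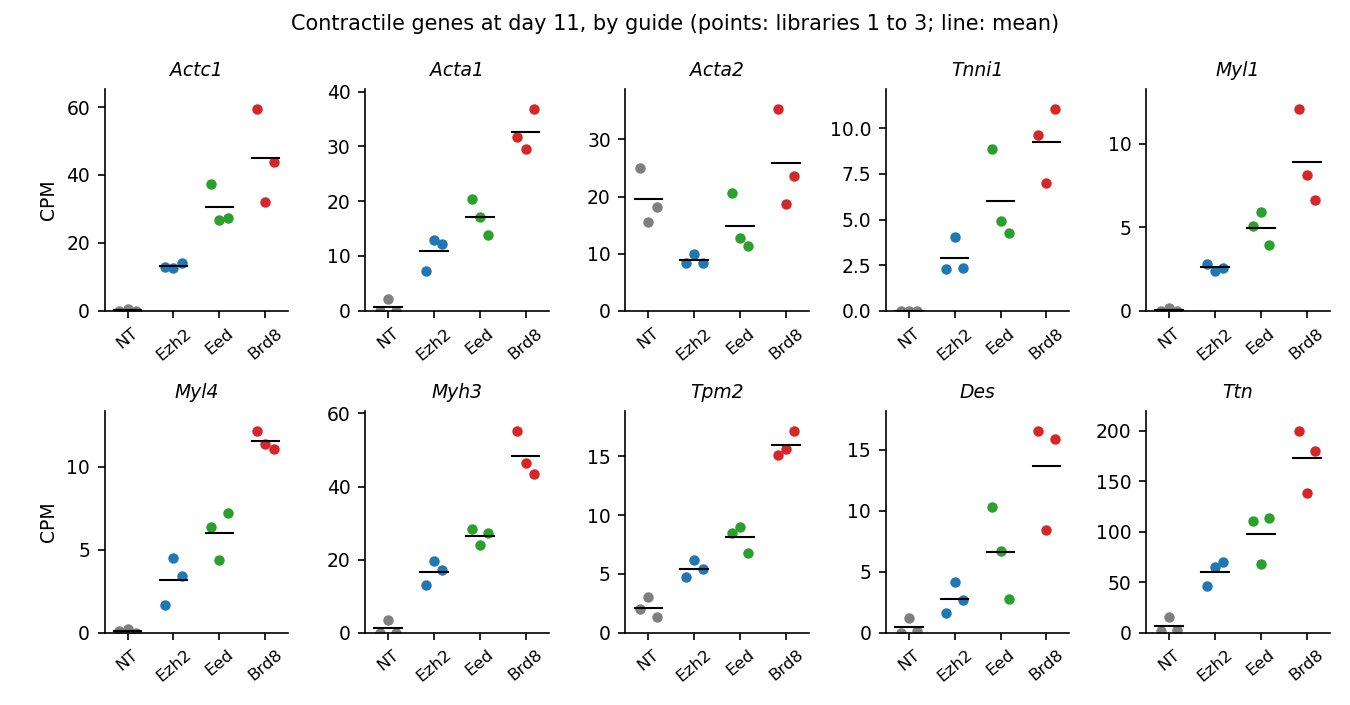
Levels in CPM of 10 contractile genes in each day 11 library with NT, Ezh2, Eed or Brd8 guides (points), with the mean of each group as a line. For the genes shown, each Brd8 library lies above each Ezh2 library, as for Actc1 with a lowest Brd8 value of 32.2 CPM against a highest Ezh2 value of 14.1 CPM.

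Single genes outside the list that are known for a part in muscle were also called higher with Brd8 guides; they were taken from the calls and form no tested group, and Ryr2, a calcium release channel, was called the other way (log2 −0.77, adjusted p = 0.0318). Actn2, the alpha-actinin that anchors actin at the Z disc, was at 21.3, 18.5 and 20.2 CPM with Brd8 guides and 4.3, 8.1 and 7.03 CPM with Ezh2 guides (log2 1.61 ± 0.23, adjusted p = 0.00294). Casq2, which stores calcium in the sarcoplasmic reticulum, differed by a log2 of 1.88 ± 0.39 (adjusted p = 0.040), and Atp2a1, the pump that returns calcium there, by 1.83 ± 0.32 (adjusted p = 0.0137). Mstn, which encodes myostatin, a secreted inhibitor of muscle growth, was at 15.6, 11.1 and 14.8 CPM against 2.19, 6.01 and 3.56 CPM (adjusted p = 0.0137). Mef2c, a transcription factor of muscle and also of some neurons, was at 40.1, 36 and 37.4 CPM with Brd8 guides, 13.7, 19.8 and 12.5 CPM with Ezh2 guides and 3.48, 6.86 and 10.9 CPM with the NT guide (log2 1.31 ± 0.17, adjusted p = 0.00132, Brd8 against Ezh2). The giant thin filament protein Neb (log2 1.31 ± 0.22, adjusted p = 0.0118), the perinatal myosin Myh8 (log2 1.45 ± 0.21, adjusted p = 0.0030) and Synpo2l (log2 1.48 ± 0.30, adjusted p = 0.0318) were called in the same direction. Neb and Synpo2l, too, are named after their values were seen. Casq2, Atp2a1 and Mstn lost the call without 4, 3 and 4 of the 6 libraries (adjusted p up to 0.23, 0.127 and 0.127).

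The myogenic regulators, the factors that set muscle identity, were at low levels. Myog, the regulator of muscle differentiation, was at 4.39, 4.44 and 8.19 CPM with Brd8 guides and 1.75, 1.99 and 1.1 CPM with Ezh2 guides, which did not overlap and did not pass the test (log2 1.82 ± 0.42, adjusted p = 0.0694). Myod1 was at 2.28, 0.970 and 0.395 CPM with Brd8 guides and at 0, 0.199 and 0.264 CPM with Ezh2 guides. Myf6 was at 0.591, 0.693 and 0.296 CPM with Brd8 guides and at 0 in the 3 Ezh2 libraries, where a count of 0 allows at most 0.132 to 0.263 CPM (3 counts, counting error only). Myf5 was at 0.760, 0.901 and 0 CPM against 0, 0.0497 and 0.527 CPM. The 4 markers taken for muscle (Myod1, Myog, Actc1, Tnnt2) summed to 40.1 to 69.3 CPM with Brd8 guides and 15.5 to 16.3 CPM with Ezh2 guides, none of them at 0 in all 6 libraries. Actc1, already described as a called gene, made up most of the sum in each library, so the sum adds little to it. The 2 mesoderm markers summed to 1.73 to 4.84 and 0.877 to 2.63 CPM and the 4 neural crest markers to 217 to 302 and 109 to 221 CPM; their part in the differences was not tested.

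Set against the NT libraries, both groups had more sarcomere RNA than the control. These values come from a fit of all 41 libraries, in which Brd8 and Ezh2 guides are each compared with the same 3 NT libraries, so they are only placed side by side. Of the 21 list members, 15 were called higher than NT with Brd8 guides (10.1% of 15204 genes tested were, and 7.50% were called lower), and 10 with Ezh2 guides (5.19% were, and 2.80% were called lower). The summed level of the list was 393 to 550 CPM with Brd8 guides, 151 to 204 CPM with Ezh2 guides, 267 to 337 CPM with Eed guides and 59.0 to 95.3 CPM with the NT guide. The 4 ranges do not overlap, with Brd8 highest.

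The promoters of sarcomere genes that separated together are shown because the muscle list is the largest group of the comparison and its genes are known targets of serum response factor (which binds the CArG box), of MEF2 factors and of myogenic E-box factors. Sequences are RefSeq's, on GRCm38.p6, from 250 to 13 bases before the start that RefSeq annotates and on the gene's own strand. That start can differ from the GENCODE start behind the gene positions given here. The windows of Actc1 and of Aldh1l1, a gene described below, lie inside the GENCODE spans of these genes. Capitals mark matches to the motifs searched on both strands (TATAAA, the E-box CAGCTG, the CArG box and the MEF2 box), and no match shown overlaps another.
Actc1 (chr2:114052888-114053125, minus strand, CArG box): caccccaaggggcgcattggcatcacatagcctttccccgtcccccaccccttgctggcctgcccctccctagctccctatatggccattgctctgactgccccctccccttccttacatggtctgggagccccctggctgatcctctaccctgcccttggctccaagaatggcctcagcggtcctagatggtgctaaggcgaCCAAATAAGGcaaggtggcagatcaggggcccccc
Acta1 (chr8:123894788-123895025, minus strand, E-box and CArG box): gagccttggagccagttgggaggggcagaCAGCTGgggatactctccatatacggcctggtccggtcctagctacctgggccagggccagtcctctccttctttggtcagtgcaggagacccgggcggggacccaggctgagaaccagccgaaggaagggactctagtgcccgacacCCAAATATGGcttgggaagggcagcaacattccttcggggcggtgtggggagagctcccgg
Myh3 (chr11:67078050-67078287, plus strand, TATAAA): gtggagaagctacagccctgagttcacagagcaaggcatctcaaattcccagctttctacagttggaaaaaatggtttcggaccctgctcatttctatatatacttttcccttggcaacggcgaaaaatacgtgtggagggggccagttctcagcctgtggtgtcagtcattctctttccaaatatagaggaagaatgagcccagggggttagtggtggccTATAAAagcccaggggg
Des (chr1:75360042-75360279, plus strand, E-box): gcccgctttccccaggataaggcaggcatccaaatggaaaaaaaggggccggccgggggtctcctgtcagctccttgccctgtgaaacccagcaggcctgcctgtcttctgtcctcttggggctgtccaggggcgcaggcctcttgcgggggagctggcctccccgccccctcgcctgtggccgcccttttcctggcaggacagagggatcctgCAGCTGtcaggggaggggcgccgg
Ttn (chr2:76982560-76982797, minus strand, MEF2 box): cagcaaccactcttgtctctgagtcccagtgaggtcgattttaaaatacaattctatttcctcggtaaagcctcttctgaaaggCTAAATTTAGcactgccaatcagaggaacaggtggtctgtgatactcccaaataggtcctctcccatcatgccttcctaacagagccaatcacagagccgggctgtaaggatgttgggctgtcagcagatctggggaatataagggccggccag
The CArG box began 47 bases before the start in Actc1 and 73 in Acta1, and the TATAAA of Myh3 began 29 bases before it. RefSeq had 23 windows for 20 of the 21 tested list members. CAGCTG was in 39.1% of them against 12.3% of all 32851 mouse promoters in the table, the CArG box in 13% against 1.43%, the MEF2 box in 4.35% against 2.83% and TATAAA in 13% against 12%. In the 13060 windows of genes tested at day 11, the set the members come from, the shares were 11.65% for CAGCTG, 1.16% for the CArG box, 1.49% for the MEF2 box and 6.14% for TATAAA. Genes called higher with Ezh2 guides had 27 windows for 18 of the 32. The shares in these were 14.8% for CAGCTG, 7.41% for the CArG box, 3.70% for the MEF2 box and 3.70% for TATAAA. A match describes the letters of the window and is not evidence of binding, and no binding was measured.

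A minority of the genes of glia and of the oligodendrocyte lineage were called higher with Ezh2 than with Brd8 guides. Of 16 tested genes of the oligodendrocyte lineage, 4 were called higher with Ezh2 guides (Olig1, Sox6, Sox8, Nkx2-2) and 0 higher with Brd8 guides, with a list median of −0.48 and 6 differences above 0. Of 22 tested genes of gliogenesis and late progenitors, 3 were called higher with Ezh2 guides (Aldh1l1, Nfix, Ptprz1) and 0 with Brd8 guides, with a median of −0.18 and 6 differences above 0. For 11 of the 22 every Ezh2 library lay above every Brd8 library, as for 8.02% of all genes tested. The oligodendrocyte list was not uniform. Sox10, which marks oligodendrocyte precursors and neural crest, was at 199.9, 174 and 154 CPM with Brd8 guides and 76.6, 156 and 69.6 CPM with Ezh2 guides (log2 0.81 ± 0.38, adjusted p = 0.601), and Pdgfra, the growth factor receptor of the precursors, overlapped between groups (adjusted p = 0.847). Olig2, the partner of Olig1 in ventral progenitors, was at 74.3, 115 and 117 CPM against 159, 145 and 137 CPM without passing (log2 −0.52 ± 0.15, adjusted p = 0.219). Sox10, Pdgfra and Olig2 are named after their values were seen.

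Olig1, a transcription factor of the oligodendrocyte lineage (chr16:91269772-91271933, plus strand), had the largest difference on this side apart from Fam177a, which is described at the end. It was at 17.5, 25.2 and 23.6 CPM with Brd8 guides and 59.1, 55.2 and 43.9 CPM with Ezh2 guides, without overlap. The difference was 2.37-fold higher with Ezh2 guides (log2 −1.24 ± 0.16, adjusted p = 0.00102). The NT libraries were higher than both, at 126, 154 and 97.3 CPM, and the Eed libraries were at 17.6, 8.61 and 9.52 CPM. Sox6, which in the spinal cord times the maturation of oligodendrocyte precursors (chr7:115470872-116038796, minus strand), was at 66.1, 70.6 and 75.2 CPM against 138, 113 and 138 CPM, with 254, 267 and 276 CPM in NT libraries (log2 −0.87 ± 0.10, adjusted p = 0.000743). Sox8, a relative of Sox9 and Sox10, was at 28.7, 33.1 and 29.8 CPM against 46.2, 50.4 and 56.6 CPM (log2 −0.74 ± 0.12, adjusted p = 0.011). Nkx2-2, which marks the most ventral neural progenitors and later oligodendrocyte precursors (chr2:147177546-147194243, minus strand), was at 20.2, 23.5 and 20.2 CPM against 35.3, 32.2 and 37.2 CPM (log2 −0.70 ± 0.14, adjusted p = 0.0297). For all 4 genes the Ezh2 libraries lay between the Brd8 and the NT libraries.

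Ptprz1, a phosphatase receptor found on radial glia and on precursors of oligodendrocytes (chr6:22875502-23052916, plus strand), was the most abundant called gene of these lists. It was at 694, 843 and 838 CPM with Brd8 guides and 1226, 1077 and 1178 CPM with Ezh2 guides, a log2 difference of −0.54 ± 0.09 (adjusted p = 0.00674). The NT libraries held 2232, 2145 and 2278 CPM and the Eed libraries 687, 559 and 626 CPM. Aldh1l1, a folate enzyme used as an astrocyte marker, was at 14.8, 22 and 12.2 CPM against 31.1, 30.8 and 34.8 CPM (log2 −0.96 ± 0.19, adjusted p = 0.0287). Nfix, a nuclear factor I protein of late progenitors, was at 42.9, 41.5 and 36.8 CPM against 67.7, 56.1 and 56.3 CPM (log2 −0.56 ± 0.12, adjusted p = 0.0412). Its relative Nfia (adjusted p = 0.321) and Sox9 (adjusted p = 0.349), the factors known to start gliogenesis, lay higher in every Ezh2 library than in any Brd8 library without passing the test.
Ptprz1 (chr6:22875252-22875489, plus strand, promoter window as above, with no match to the 4 motifs): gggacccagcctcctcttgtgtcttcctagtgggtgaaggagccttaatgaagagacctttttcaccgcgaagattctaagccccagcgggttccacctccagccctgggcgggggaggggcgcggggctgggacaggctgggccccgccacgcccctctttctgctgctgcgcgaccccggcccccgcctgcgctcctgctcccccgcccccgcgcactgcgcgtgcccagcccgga
The window is shown beside those of the sarcomere genes, and it held 19 CpG dinucleotides, against 4 to 10 in those of Actc1, Acta1, Myh3, Des and Ttn and 7 in that of Aldh1l1, which was also higher with Ezh2 guides. In a longer window that runs past the start, the median was 21 over all tested genes with a window and 6.5 over those of the tested muscle list. The single windows stand for no group. Among the 18 genes called higher with Ezh2 guides that had a window, 2 held a CArG box (Nfix and Nkx2-2) and 4 held CAGCTG.

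A few other genes, taken from the calls and not a tested group, were higher with Ezh2 guides. Sparcl1, a matricellular protein that astrocytes secrete, was at 63, 63.6 and 62.4 CPM with Brd8 guides and 103, 109 and 112 CPM with Ezh2 guides, with little spread in either group (log2 −0.77 ± 0.09, adjusted p = 0.000743). The GABA transporter Slc6a11 was at 32.5, 39.6 and 30.2 CPM against 62.9, 61.5 and 56 CPM (log2 −0.81 ± 0.12, adjusted p = 0.00473). Adcyap1r1, the receptor of the peptide PACAP, differed by −0.66 ± 0.10 (adjusted p = 0.0040). The summed level of 6 glial markers was 1392 to 1628 CPM with Brd8 guides and 1924 to 2143 CPM with Ezh2 guides, with Ptprz1 the most abundant of them. The 4 oligodendrocyte precursor markers, Sox10 among them, summed to 239 to 320 and 184 to 306 CPM.

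**Figure D3:**
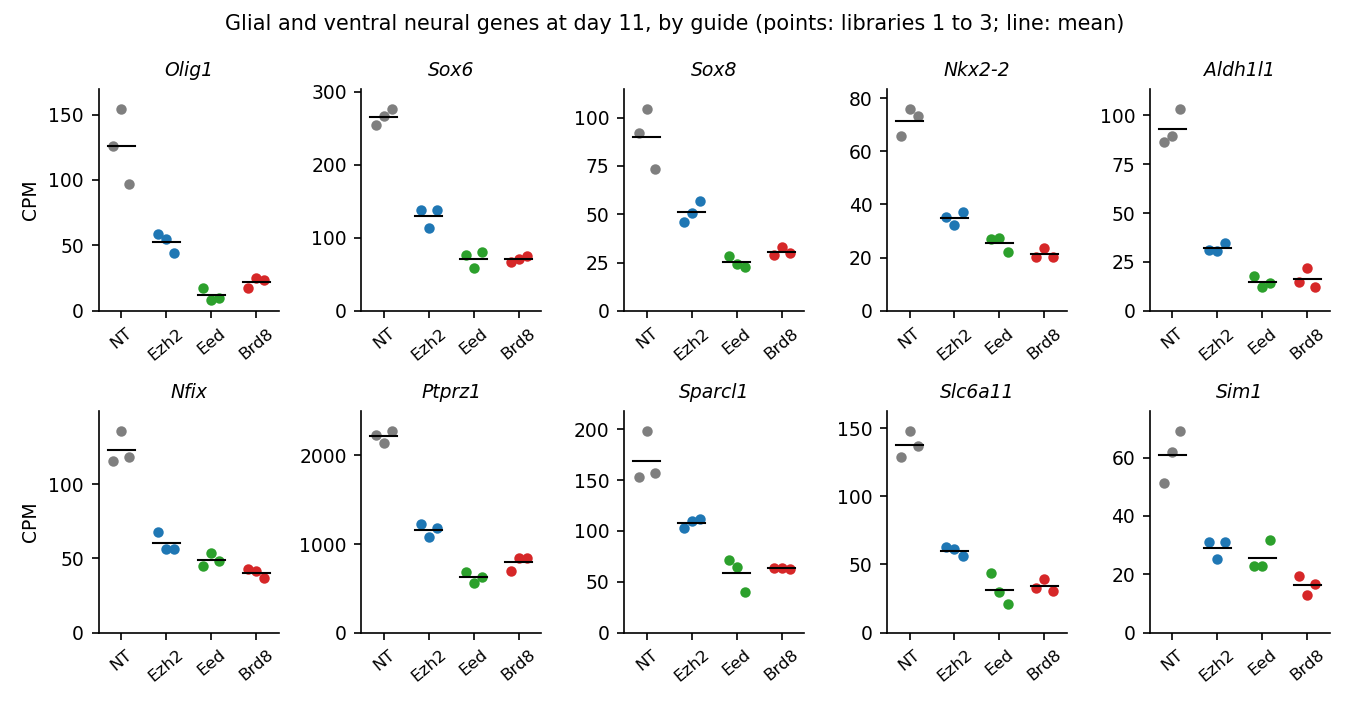
Levels in CPM of 10 neural and glial genes called higher with Ezh2 guides, in each day 11 library with NT, Ezh2, Eed or Brd8 guides (points), with the mean of each group as a line. In each panel the Ezh2 points lie above the Brd8 points, as for Olig1 at 59.1, 55.2 and 43.9 against 17.5, 25.2 and 23.6 CPM.

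Neuronal genes were called singly rather than as groups, and not all on the Ezh2 side. Of 31 neurogenesis and pan-neuronal genes, 1 was called higher with Brd8 guides (Neurod4, given below) and 0 higher with Ezh2 guides. The median of that list was −0.03. Sim1, a transcription factor of the most ventral interneurons (V3), was the 1 called of 28 interneuron genes (4 without Ezh2 replicate 2), at 19.3, 12.8 and 16.6 CPM with Brd8 guides and 30.9, 25.3 and 31.1 CPM with Ezh2 guides (log2 −0.84 ± 0.17, adjusted p = 0.040). Ntn1, the netrin that guides commissural axons from the floor plate and ventral progenitors, was the 1 called of 34 axon guidance genes, at 303, 345 and 296 CPM against 430.1, 415 and 445 CPM (log2 −0.44 ± 0.08, adjusted p = 0.0184). Of 37 long adhesion and synapse genes, 2 were called, both higher with Ezh2 guides: Csmd1 (log2 −0.77 ± 0.13, adjusted p = 0.0122) and the synaptic scaffold Magi2 (log2 −0.69 ± 0.11, adjusted p = 0.00898). The median of that list was −0.24, and 8 of its 37 differences were above 0. Ryr2, a calcium release channel of heart and brain (adjusted p = 0.0318), Ncald, a neuronal calcium sensor (adjusted p = 0.0352), and Vit (adjusted p = 0.0184) were also higher with Ezh2 guides, by log2 differences of −0.77, −0.79 and −0.75. No motor neuron gene was called (0 of 18, median 0.14), nor any clustered protocadherin (0 of 57, median −0.15).

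Many of the calls on this side were lost when 1 library was left out. Olig1, Sox6, Sparcl1, Slc6a11 and Adcyap1r1 stayed called without any 1 library. Sox8 lost its call without Brd8 replicate 1 or Ezh2 replicate 3 (adjusted p up to 0.117), Ptprz1 and Csmd1 without Ezh2 replicate 1 or 3 (up to 0.0584 and 0.109), and Magi2 without Brd8 replicate 1 or Ezh2 replicate 1 or 3 (up to 0.070). Nkx2-2, Aldh1l1, Sim1, Ntn1, Ryr2, Ncald and Vit lost it without 4 of the 6 libraries (up to 0.221, 0.202, 0.282, 0.129, 0.197, 0.227 and 0.149) and Nfix without 5 (up to 0.235). The gliogenesis list had 0 called members without Ezh2 replicate 1, and the oligodendrocyte list kept 2 to 6, its median running from −0.64 without Brd8 replicate 1 to −0.24 without Brd8 replicate 3.

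In both groups more genes of the glial and oligodendrocyte lists were called lower than NT than higher. In the fit of all 41 libraries, which uses the same NT libraries for both, 14 of 22 gliogenesis genes were called lower than NT with Brd8 guides (7.50% of all genes in that fit) and 10 with Ezh2 guides (2.80%). Called higher than NT were 3 of them with Brd8 guides (10.1% of all genes) and 1 with Ezh2 guides (5.19%). Of the 16 oligodendrocyte genes, 9 were called lower than NT with Brd8 guides and 5 with Ezh2 guides, and 1 and 0 higher. For Sox6 the difference from NT was −1.91 with Brd8 guides (adjusted p = 2.90e-07) and −1.04 with Ezh2 guides (adjusted p = 0.00161). For Olig1 it was −2.51 (adjusted p = 1.49e-05) and −1.26 (adjusted p = 0.0218).

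Single genes of trunk position, early progenitors and the cell cycle were called higher with Brd8 guides, while most members of their lists did not pass. Hoxb9, a homeobox gene of thoracic and more posterior levels (chr11:96271457-96276595, plus strand), was at 595, 513 and 538 CPM with Brd8 guides and 303, 351 and 351 CPM with Ezh2 guides. All libraries of both groups were above the NT libraries, at 67.4, 88.6 and 68.8 CPM, and the difference between the groups was 1.64-fold (log2 0.72 ± 0.09, adjusted p = 0.000743). It was the 1 called of 12 tested genes of Hox groups 6 to 9, of which 10 had differences above 0 and a median of 0.58. Hoxc8 was at 85, 46.4 and 49.9 CPM against 12.3, 22 and 7.38 CPM and Hoxa7 at 38.2, 38.2 and 24.4 CPM against 11.1, 23.2 and 13.2 CPM. Neither overlapped between the groups and neither passed (adjusted p = 0.275 and 0.161; named after their values were seen). The list median was 0.38 without Brd8 replicate 1 and 0.70 without Ezh2 replicate 2, when 4 members were called. Of 15 genes of Hox groups 1 to 5, 0 were called (median −0.08), and no gene of groups 10 to 13 had enough counts to test.

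Hmga2, a chromatin protein of young neural stem cells (chr10:120361275-120476469, minus strand), was at 182, 126 and 139.7 CPM with Brd8 guides and 91.8, 82.6 and 80 CPM with Ezh2 guides, and at 57.5, 66.8 and 34.5 CPM in NT libraries (log2 0.83 ± 0.12, adjusted p = 0.00385). It was the 1 called of 14 early genes of the heterochronic list (median 0.16), and the RNA-binding proteins Lin28a (adjusted p = 0.84), Lin28b (adjusted p = 0.682) and Igf2bp1 (adjusted p = 0.76) overlapped between the groups. Ccnd1, cyclin D1, which drives progenitors into the cell cycle (chr7:144929931-144939925, minus strand), was at 212, 177 and 172 CPM against 119, 142 and 117 CPM, with 31, 35.7 and 21.7 CPM in NT libraries (log2 0.58 ± 0.10, adjusted p = 0.0137). It was the 1 called of 8 D-type cyclins and their kinases. The call of Ccnd1 was lost without Brd8 replicate 1, Ezh2 replicate 1 or Ezh2 replicate 3 (adjusted p up to 0.128), and the list median, 0.16, fell to −0.03 without Brd8 replicate 1. Among 30 mitosis genes 0 were called although all 30 differences were above 0 (median 0.19, and 0.10 without Brd8 replicate 1), and among 35 DNA replication genes 0 were called (28 above 0, median 0.19, and 0.091 without Brd8 replicate 1).

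Signalling and dorsal genes gave single calls on the Brd8 side. Fzd10, a Wnt receptor of the dorsal spinal cord, was at 39.1, 34.5 and 34.7 CPM against 19.8, 19.12 and 16.7 CPM (log2 0.97 ± 0.14, adjusted p = 0.0030), and Sfrp2, a secreted Wnt modulator, was the 1 called of 20 Wnt genes (log2 0.51 ± 0.10, adjusted p = 0.0318). Gli3, the main repressor of the Hedgehog response, differed by 0.65 ± 0.13 (adjusted p = 0.0439). Pax7, a factor of dorsal progenitors and also of muscle stem cells, was low, at 9.71, 7.42 and 9.87 CPM against 4.21, 2.73 and 3.38 CPM, and near 0 in NT libraries (log2 1.4 ± 0.29, adjusted p = 0.040). It was the 1 called of 23 dorsal and intermediate progenitor genes, whose median was 0.36 and fell to 0.12 without Brd8 replicate 1. Itga4, an integrin subunit of migrating neural crest and muscle precursors, was at 86.1, 58 and 60 CPM against 25.7, 36.7 and 22.4 CPM (log2 1.27 ± 0.20, adjusted p = 0.0229). Txnip, an inhibitor of thioredoxin that responds to glucose, was at 156, 169 and 162 CPM against 93.7, 119 and 103 CPM (log2 0.63 ± 0.10, adjusted p = 0.00464), and the proneural factor Neurod4 differed by 0.49 ± 0.10 (adjusted p = 0.0495). Fzd10 and Txnip stayed called without any 1 library, while Itga4 lost its call without 3 of the 6 libraries (adjusted p up to 0.164), Sfrp2 and Neurod4 without 4 (up to 0.198 and 0.303) and Gli3 and Pax7 without 5 (up to 0.203 and 0.221).

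The lists of neural crest genes, of non-neural regulators known as PRC2 targets and of epithelial genes gave no call with all 6 libraries. Hox groups 6 to 9, described above with Hoxb9 called, also hold genes that PRC2 is known to repress. All 17 tested neural crest genes had differences above 0, with a median of 0.50 that fell to 0.30 without Brd8 replicate 1, and 0 were called, against 5 without Ezh2 replicate 2. Of 22 non-neural regulators known as PRC2 targets, 21 had differences above 0 (median 0.64, and 0.24 without Brd8 replicate 1) and 0 were called. Without Ezh2 replicate 2 their median was 0.91 and 2 were called. Tfap2a, their most abundant member, was at 112, 64.9 and 85.8 CPM with Brd8 guides and 35, 53.2 and 30.7 CPM with Ezh2 guides (log2 1.15 ± 0.28, adjusted p = 0.234). Of the 15 epithelial genes 0 were called and 3 had differences above 0, with a median of −0.63 that ran from −1.74 without Brd8 replicate 1 to 0.015 without Ezh2 replicate 2, and with Cdh1 at 16.4, 2.91 and 3.35 CPM against 2.9, 20.9 and 7.2 CPM, values that varied as much within each group as between them. Subunit genes of PRC2 (0 of 11 called, median 0.03), PRC1 (0 of 19, median 0.00) and NuA4/TIP60 (0 of 17, median −0.03) had medians near 0.

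**Figure D4:**
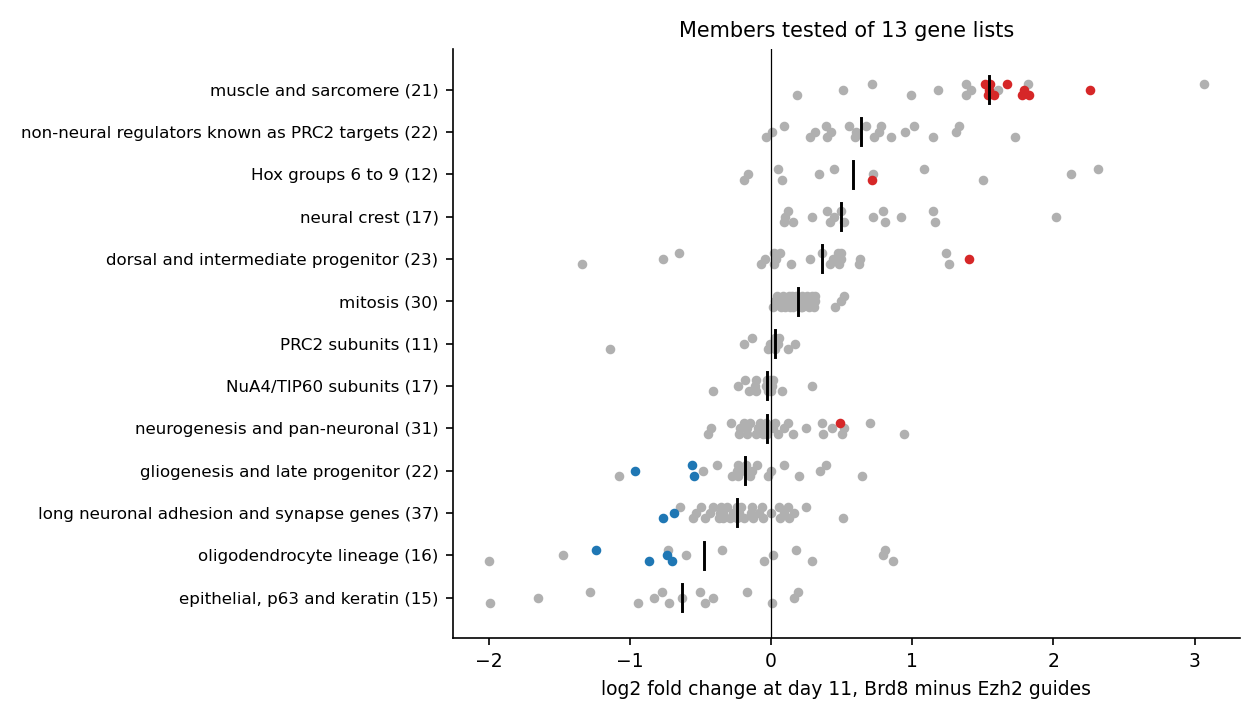
Log2 differences (Brd8 minus Ezh2 guides) at day 11 of the tested members of 13 gene lists, 1 point per gene, with the median of each list as a black bar and called members in red (higher with Brd8 guides) or blue (higher with Ezh2 guides). The muscle and sarcomere list stands farthest from 0, with a median of 1.54 and 10 of 21 members called.

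Libraries of days 7 and 9, which the day 11 comparison did not use, give the same contrast in a fit of 17 libraries. At day 7, 10 of 14484 genes were called (0.0690%), and at day 9, with 2 Brd8 libraries, 1450 were called (10.0%). Of the 39 genes higher with Brd8 guides at day 11, all 39 had the same sign at day 9 and 29 at day 7, and of the 32 higher with Ezh2 guides 31 had the same sign at day 9 and 23 at day 7. Over all genes tested at day 11 the share with the same sign was 64.8% at day 9 and 56.6% at day 7. Called at day 9 were 21 of the 39 and 19 of the 32, and 0 of either at day 7. Leaving out Brd8 replicate 2 of day 9 took the day 9 count from 1450 to 241, where the spread of the 1 Brd8 library left was taken from the rest of the fit.

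The sarcomere list stood above 0 at days 9 and 11 and not at day 7. The median difference of the 21 list members was −0.19 at day 7 (8 above 0), 1.82 at day 9 (18 above 0) and 1.54 at day 11 in the comparison itself. Mean Myh3 with Brd8 guides was 6.22 ± 3.36 CPM (SD) at day 7, 35.2 ± 16.7 at day 9 (n = 2) and 48.3 ± 6.12 at day 11. With Ezh2 guides it was 6.26 ± 1.16, 8.65 ± 6.95 and 16.6 ± 3.29 CPM (n = 3 at each day). Its log2 difference was −0.03 at day 7 (adjusted p = 1.0) and 1.94 at day 9 (adjusted p = 0.042). Actc1 differed by 2.06 at day 9 without passing (adjusted p = 0.0693), and Tpm2 by 1.6 (adjusted p = 0.0102).

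Of the genes higher with Ezh2 guides, Sim1 differed most at day 9 (log2 −2.26, adjusted p = 3.92e-05). Nkx2-2 differed by −1.78 at day 9 (adjusted p = 0.00176), Ptprz1 by −1.24 (adjusted p = 0.00318), Sox6 by −0.99 (adjusted p = 0.00848), Sox8 by −0.89 (adjusted p = 0.0112) and Nfix by −0.98 (adjusted p = 0.00244). Olig1 did not pass at day 9 (log2 −0.97, adjusted p = 0.175), nor did Aldh1l1 (log2 −1.0, adjusted p = 0.372). On the Brd8 side, Hoxb9 differed by 1.55 at day 9 (adjusted p = 0.0156), Ccnd1 by 1.34 (adjusted p = 0.00375) and Hmga2 by 0.44 (adjusted p = 0.0228). The difference between the guides was itself compared between day 11 and day 7 by an interaction term: 0 of 14484 genes passed (0%), with 714 at an unadjusted p under 0.05 by edgeR, so no gene is shown to differ more at day 11 than at day 7.

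**Figure D5:**
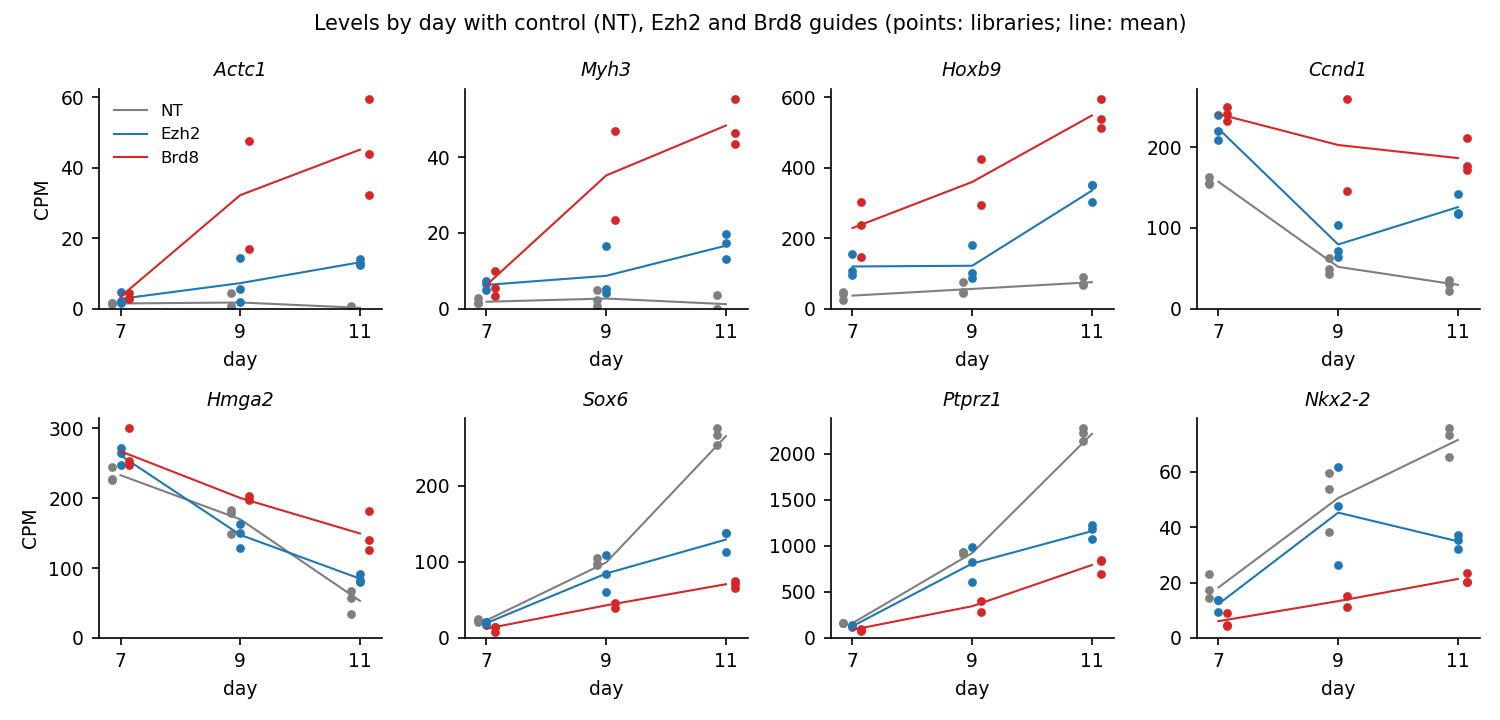
Mean levels in CPM at days 7, 9 and 11 of 8 genes in cells with NT, Ezh2 or Brd8 guides, with each library as a point. Myh3 and Actc1 with Brd8 guides stand above the other groups at day 11, and Sox6 and Ptprz1 are highest with the NT guide and lowest with Brd8 guides at that day.

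Fam177a had the largest fitted difference of all and is given as values only; it counts among the 32 genes called higher with Ezh2 guides and the 19 genes that kept their call. It was listed at 0, 0 and 0 in the Brd8 libraries and at 28.3, 11.1 and 12.1 CPM in the Ezh2 libraries, and also at 0, 22.7 and 19.11 CPM in NT and 22, 0 and 25.6 CPM in Eed libraries. Over the series it was listed at 0 in 19 of the 41 libraries and at 10.3 CPM or more in the other 22, and 8 of the 15 groups held both kinds of library. Whether a listing at 0 stands for absent RNA or for the way reads were assigned to this symbol was not tested, so its call cannot be read as a change in expression. The span of the called genes was described from the annotation: the median was 31.6 kb for genes higher with Brd8 guides (37 of 39 matched), 65.8 kb for those higher with Ezh2 guides (31 of 32) and 25.4 kb for all tested genes (12987 of 13511). RefSeq promoter windows matched 76.9% of the genes higher with Brd8 guides, 56.3% of those higher with Ezh2 guides and 75.25% of all tested genes. In the longer window, the median CpG count of the matched genes was 8, 17.5 and 21. The unmatched genes are not described by these medians, and no test was run.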

How the data were processed

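Total RNA of R1-iCas9 cells was sequenced from directional, ribodepleted libraries, per the labels' protocols, although the labels also call the library source genomic. The authors deposited a table of estimated counts per gene symbol and library, 24410 symbols by 41 libraries, and 2.95% of its values were not whole and were rounded here. Named in the submitters' processing notes are the build mm10 and the tool DESeq2. Which aligner and quantifier were used is not given in the sources used here. Groups came from the titles.

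The 6 libraries were fitted in R 4.3.3 with edgeR 4.0.16 (limma 3.58.1): filterByExpr (a minimum count of 10, here 0.795 CPM), TMM scaling and robust quasi-likelihood tests, two-sided, with Benjamini-Hochberg adjustment over all genes tested and a threshold of 0.05. Differences are log2 of Brd8 over Ezh2 guides. Levels are CPM with TMM factors of all 41 libraries. Days 7 and 9 and the interaction came from a fit of 17 libraries and comparisons with NT from a fit of 41. The pipeline was tested on simulated data. Floors are 3 counts and intervals cover 95%, for counting error only where they rest on counts.

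The comparison, its gene lists (45 lists, described by counts and medians) and its members were chosen with earlier results of these data known. Named are the guides' targets, the 12 highest and 12 lowest called differences (no overlap, higher group with a mean of 2 CPM or more), the 5 most abundant called at 2-fold or more, up to 4 called members of each list with the smallest adjusted p, and the most abundant member of a list with none called. Clone-like symbols were left unnamed, some genes that the rule allows are not printed, and those outside it are said to be so. Alternatives were DESeq2 1.42.0 (size factors in edgeR, and the Wald test), no filter, other sets of libraries in the fit, the replicate number as a block and each library left out. Fits of the 14 day 11 libraries, of 39 libraries, without robust estimates and the libraries left out at day 9 were chosen after seeing the data, as was leaving out Rn45s. Positions are GENCODE M21 on GRCm38, the assembly of mm10. RefSeq promoter windows were cut to 238 bases before the start.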

Additional observations from a re-analysis of the deposited data

How the results depend on the processing

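The 71 calls (39 higher with Brd8 guides, 32 with Ezh2 guides, 26 at 2-fold or more) became 196 (121, 75 and 64) with the DESeq2 Wald test, 251 (147, 104 and 69) with no filter on low counts, 27 (8, 19 and 5) with the 14 day 11 libraries in the fit, 4 (3, 1 and 0) with 17 libraries, 4 (4, 0 and 1) with 39 and 1 (1, 0 and 1) with all 41. With the replicate number as a block there were 25 (18, 7 and 14). Same-numbered libraries deviated with correlations of −0.080, −0.067 and 0.0074, and not every library correlated best with its own number, so the numbers were not taken as pairs. Leaving out 1 library gave 21 to 136 calls (14 to 101 higher with Brd8 guides, 7 to 48 with Ezh2 guides, 12 to 66 at 2-fold or more). Of 624 values of 39 named called genes over 16 alternatives, 363 stayed past the threshold, 261 kept their direction without passing it and 0 reversed. The alternatives reuse the libraries that gave the calls, so kept directions are not separate support. DESeq2 size factors in edgeR gave 73 calls, leaving out Rn45s 73 and no robust estimates 56. The common biological coefficient of variation was 0.155 with 6 libraries and 0.182 with 41; the cause of the loss of calls was not tested.

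At day 7 the 10 calls became 54 with only the groups compared in the fit and 0 to 19 with 1 library left out. At day 9 the 1450 calls became 935 with only the groups compared, 241 without Brd8 replicate 2, 837 without Ezh2 replicate 1 and 801 without Ezh2 replicate 2, up to 1695. The difference between days gave 0 calls, 1 with all 41 libraries, 1 with the replicate block, and 0 to 5 with 1 library left out. Ezh2 guides against NT gave 789 higher and 425 lower, 446 and 226 without NT replicate 3, and 486 and 254 with 39 libraries. With 1 NT library left out the ranges were 446 to 776 and 226 to 371, and Ezh2 libraries were not left out in turn. Genes under about 0.795 CPM could not be tested.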
